A study of Drosophila melanogaster with 4 samples.

Results

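The spalt genes salm (CG6464) and salr (CG4881) and the POU genes nub (CG34395) and pdm2 (CG12287) are pairs of related transcription factor genes that lie close to each other on arm 2L of the Drosophila melanogaster genome. Occupancy by dSFMBT at these pairs was read from every enriched region that overlapped the stretch of 2L from 11.34 to 11.47 Mb, called the salm-salr interval, or the stretch from 12.58 to 12.70 Mb, called the nub-pdm2 interval (FlyBase release 5). The intervals held 22 of the 9756 regions of the list combined over replicates, 17 of 5514 regions of replicate 1 and 14 of 6004 regions of replicate 2. Of the 22, 7 lay in the salm-salr interval and 15 in the nub-pdm2 interval.

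The data came from chromatin immunoprecipitation and sequencing of wild-type Oregon-R larvae at the third instar with the antibody Q2642 against dSFMBT. The 4 samples were 2 ChIP replicates and 2 inputs. All groups were wild type, and no treatment was labelled. The inputs had no region list of their own, and no label states if each replicate was collected separately, so the spread between them may be technical. The lists hold no read numbers, so depth is unknown and the precision of a single score could not be stated.

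dSFMBT is a Polycomb group protein. It forms the complex PhoRC with the DNA-binding protein Pho, which sits at Polycomb response elements and takes part in the repression of developmental regulator genes. salm and salr encode zinc-finger repressors that act downstream of Dpp signalling in the wing disc, where they help to place the wing veins, and they also act in the tracheal system and in photoreceptors. nub and pdm2 encode proteins with a POU domain and a homeodomain. They act in growth and patterning of the wing and other limbs, and in the temporal series of neuroblasts of the embryo. Whole larvae mix cells in which these genes are on with cells in which they are off. A region present in fewer cells and a region weaker in every cell cannot be told apart in such material.

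The gene table at hand belonged to release 6, so it was used for names and gene order alone, and no region was assigned to a gene, promoter, exon or intron. In that order salr came first and salm followed, with the non-coding gene lncRNA:CR43681 between them. nub was followed by Ref2 and then by pdm2. Each region carried 1 score from the authors. The score was read as log2 from the values themselves, and a ratio given here is 2 raised to that score. The denominator of the ratio is not stated there.

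Both intervals carried dSFMBT regions that were found in each library. A combined-list region was called shared when it overlapped a region of both replicate lists by at least 1 bp. In the salm-salr interval 4 of 7 regions were shared, 57.1% (95% exact Clopper-Pearson interval 18.4 to 90.1%). In the nub-pdm2 interval 8 of 15 were shared, 53.3% (26.6 to 78.7%). Over the whole combined list 41.4% of regions were shared. The Clopper-Pearson intervals cover counting error only. They treat regions as independent, although the regions share their libraries, so they do not test the members against the list. The remaining 10 member regions comprised 5 found in neither replicate list, 3 found in replicate 1 alone and 2 found in replicate 2 alone. Over the whole list 32.1% were found in neither. Of its 9756 regions, 965 were found in replicate 1 alone and 1626 in replicate 2 alone.

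**Figure D1:**
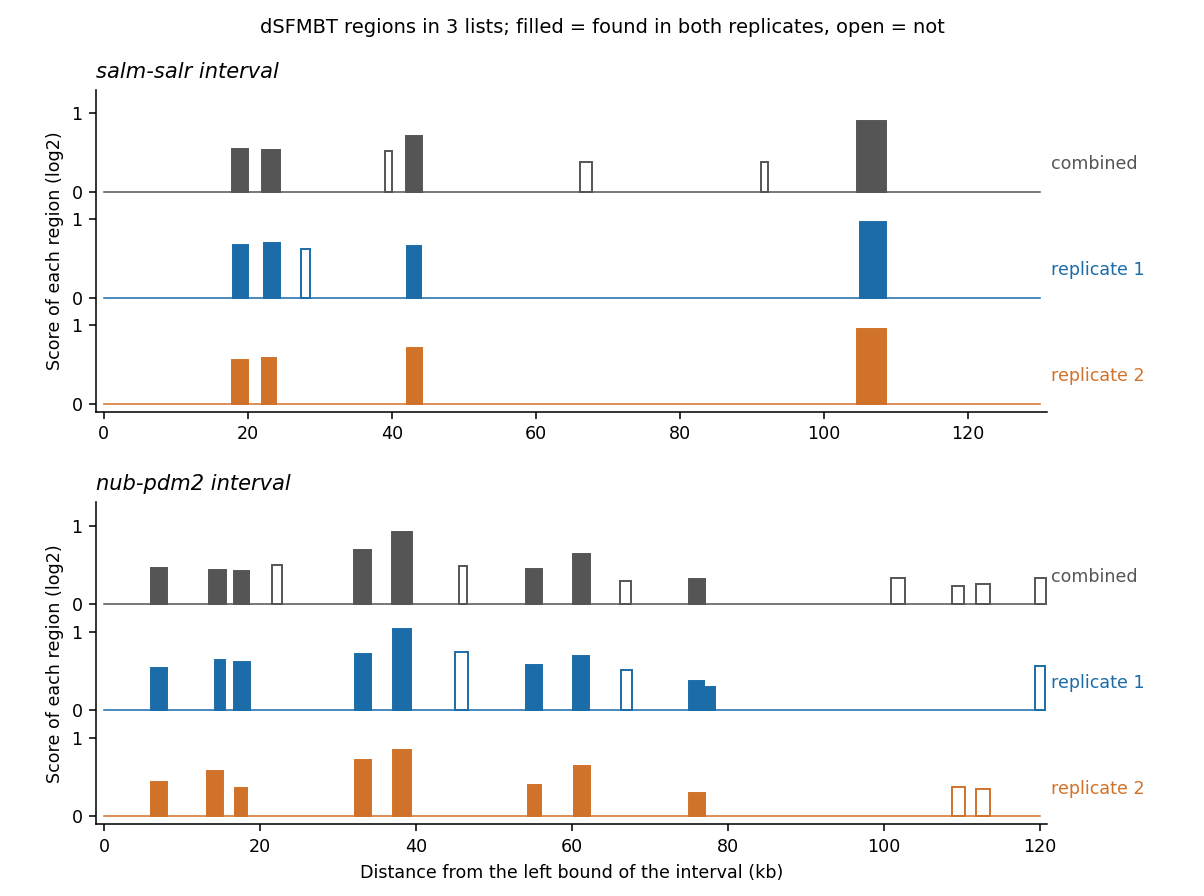
Enriched regions of the salm-salr interval (top) and the nub-pdm2 interval (bottom) in the combined, replicate 1 and replicate 2 lists. The horizontal axis is the distance from the left bound of the interval in kb, each box spans a region and its height is the region's log2 score. Filled boxes of the combined list overlapped both replicate lists, and filled boxes of a replicate list overlapped the other replicate. The salm-salr interval holds 4 filled combined-list boxes. The nub-pdm2 interval holds 8, which all lie left of its longest stretch free of boxes.

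Read from the replicate lists, 13 of the 17 replicate 1 members were found again in replicate 2, against 79.4% of all replicate 1 regions. In the other direction 12 of the 14 replicate 2 members were found in replicate 1, against 71.1% of all replicate 2 regions. In the salm-salr interval all 4 replicate 2 regions overlapped regions among the 5 of replicate 1. The fifth, from 11367400 to 11368720 with a replicate 1 score of 0.62, overlapped neither replicate 2 nor the combined list. Such absence from the combined list was found for 2.05% of replicate 1 regions.

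The strongest region of the salm-salr interval had nearly the same score in both replicates. It ran from 11444618 to 11448617 in the combined list, 4000 bp, and was the widest member of either interval. It scored 0.97 in replicate 1 and 0.96 in replicate 2, a mean of 0.96 ± 0.0044 (SD, n = 2), and 0.90 in the combined list, a ratio of 1.87. Both replicate scores were thus above the combined score. It was 3546 bp wide in replicate 1 and 4014 bp wide in replicate 2, with centres 232 bp apart. By combined score it ranked 622 of the 4036 shared regions of the genome, above 84.6% of them, and by width it ranked 1013.

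The other shared regions of the salm-salr interval lay in its left part, with centres 18.9, 23.2 and 43.1 kb from the left bound. The region from 11382037 to 11384198 scored 0.66 in replicate 1 and 0.71 in replicate 2, and 0.70 in the combined list. Its mean was 0.69 ± 0.037 (SD, n = 2). The region from 11361991 to 11364462 scored 0.70 in replicate 1 and 0.58 in replicate 2 (0.64 ± 0.083, SD, n = 2), and the region from 11357801 to 11360095 scored 0.68 and 0.56 in replicates 1 and 2 (0.62 ± 0.085, SD, n = 2). Combined scores of these last regions were 0.53 and 0.55, just below the median of 0.56 over all shared regions. The order among the 3 was not fixed by the data, since the region from 11382037 was lowest in replicate 1 and highest in replicate 2. Each of them scored below the region from 11444618 in both libraries.

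Between its left shared regions and the region from 11444618 the salm-salr interval was sparse. The centres of the shared regions from 11382037 and from 11444618 lay 63.5 kb apart. Only weaker regions stood in between, from 11406175 to 11407766 at a combined score of 0.38 and from 11431185 to 11432279 at 0.38, and neither was found in a replicate. The longest stretch free of regions of any list ran from 11407767 to 11431184, 23.4 kb. The other unshared region, from 11379005 to 11380009, was 1005 bp wide and scored 0.52.

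In the nub-pdm2 interval the shared regions were more numerous and lay closer together. The strongest ran from 12616987 to 12619439, 2453 bp. It scored 1.03 in replicate 1 and 0.84 in replicate 2, a mean of 0.94 ± 0.14 (SD, n = 2), and 0.92 in the combined list, a ratio of 1.89. It ranked 600 of 4036 by combined score, above 85.1% of the shared regions. Its centre differed by 26.0 bp between the replicates, so the libraries placed it closely while its score varied more than that of the leading salm-salr region.

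The next region to the left, from 12612106 to 12614252, scored 0.71 in each replicate (0.71 ± 0.0015, SD, n = 2) and 0.69 in the combined list. The region from 12640181 to 12642333 scored 0.69 in replicate 1 and 0.64 in replicate 2 (0.67 ± 0.035, SD, n = 2), with a combined score of 0.64. These regions and the strongest one were the 3 shared nub-pdm2 regions above the genome median of 0.56, and their replicate values did not overlap one another. The next by combined score ran from 12585995 to 12588104, at 0.54 in replicate 1 and 0.44 in replicate 2 (0.49 ± 0.072, SD, n = 2). The region from 12634144 to 12636164 followed, at 0.58 in replicate 1 and 0.40 in replicate 2 (0.49 ± 0.13, SD, n = 2).

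The remaining shared nub-pdm2 regions lay from 12593411 to 12595676, from 12596601 to 12598619 and from 12655026 to 12657018. The first scored 0.65 in replicate 1 and 0.58 in replicate 2. Its combined score was 0.43, lower than both replicate scores, which had an SD of 0.049. Over all shared regions the median combined score, 0.56, was also below the medians of replicate 1, 0.61, and replicate 2, 0.66. The region from 12596601 differed most between libraries, at 0.62 in replicate 1 and 0.37 in replicate 2. The region from 12655026 was the lowest of the 12 shared members in both libraries, at 0.38 in replicate 1 and 0.30 in replicate 2, and ranked 3864 of 4036. In replicate 1 it overlapped 2 adjacent pieces, and the higher score was used.

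**Figure D2:**
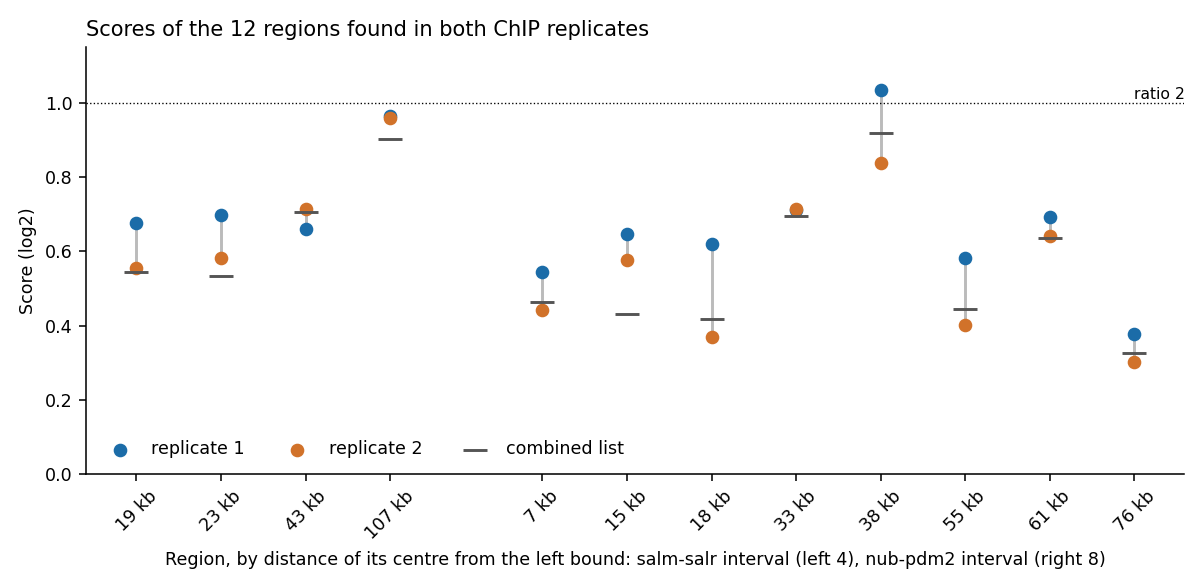
Scores of the 12 shared regions on the log2 scale in replicate 1, replicate 2 and the combined list, with the 4 of the salm-salr interval on the left and the 8 of the nub-pdm2 interval on the right, each placed in genome order and labelled by the distance of its centre from the left bound. Grey lines join the replicate values. 1 point, the replicate 1 score of 1.03 at nub-pdm2, lies above the dotted line at a ratio of 2.

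All 8 shared nub-pdm2 regions lay in the left part of the interval, over 71.0 kb, where adjacent centres were a median of 7.49 kb apart and at most 16.9 kb apart. The longest stretch free of any region, 22.6 kb from 12658376 to 12680992, followed on the right. Beyond it 4 combined-list regions had scores of 0.24 to 0.33, and 0 of them were shared. 1 was found in replicate 1 alone, 2 in replicate 2 alone and 1 in neither. This division of the interval was chosen after its values had been seen.

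Regions of the nub-pdm2 interval that were found in replicate 1 alone included 1 with a high score. It ran from 12624943 to 12626685 in replicate 1 at 0.74, the second highest of the 12 replicate 1 regions of the interval and above 75.5% of that list. Replicate 2 listed no region there, and the overlapping combined-list region, from 12625472 to 12626523, scored 0.48. A region absent from a list may lie just under the caller's limit, a value not stated in the files or labels. The other member found in replicate 1 alone within the left part ran from 12646196 to 12647608, with a combined score of 0.29. The highest combined score of an unshared member of the interval was 0.50, from 12601554 to 12602772. That region was found in neither replicate, and its score was above the median of 0.45 over the shared nub-pdm2 regions.

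0 of the 22 combined-list members had a ratio above 2, against 6.21% of the whole list. In the replicate lists 1 of 17 replicate 1 members passed that ratio, against 8.61% of the list, and 0 of 14 replicate 2 members did, against 12.5%. A ratio above 1.5 was reached by 5 of the 22 combined-list members, 2 in the salm-salr interval and 3 in the nub-pdm2 interval, which was 22.7% against 23.3% of the whole list. The shared members had a median combined score of 0.63 in the salm-salr interval and 0.45 in the nub-pdm2 interval. Over all shared regions the median was 0.56, and over the 672 shared regions of 2L it was 0.54.

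The shared members were narrow. Their median width was 2157.5 bp, against 2878.5 bp over all shared regions, and 1 of the 12, the salm-salr region from 11444618, was wider than that genome median, against 50% of all shared regions. Widths of the other shared members ran from 1993 to 2472 bp. Unshared members were narrower still, at 1005 to 1592 bp in the salm-salr interval and 1052 to 1746 bp in the nub-pdm2 interval. Over the whole list unshared regions were also narrower than shared ones, with a median of 1251 bp where found in neither replicate. The median was 1812 bp for regions found in replicate 1 alone and 1945 bp for those in replicate 2 alone. Overlap depends in part on width, so width and the shared class are not independent measures. The cause of their relation was not tested.

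**Figure D3:**
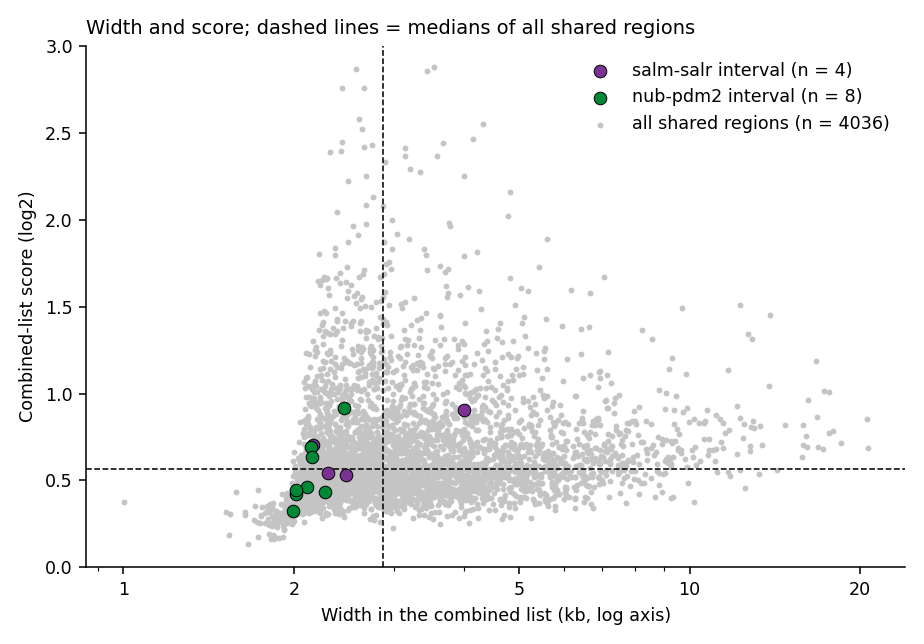
Width in kb on a log axis against combined-list score on the log2 scale for the shared regions of the salm-salr interval (n = 4), of the nub-pdm2 interval (n = 8) and of the whole genome (n = 4036). Dashed lines are the medians of all shared regions, 2878.5 bp and 0.56. The coloured points lie left of the vertical line apart from the salm-salr region of 4000 bp, and 5 of the 12 lie above the horizontal line.

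Most shared members scored higher in replicate 1 than in replicate 2. Replicate 1 was higher for 3 of 4 shared salm-salr regions and 7 of 8 shared nub-pdm2 regions, against 40.9% of all shared regions. The differences, replicate 2 minus replicate 1, had a median of -0.06 in the salm-salr interval (means 0.70 in replicate 2 and 0.75 in replicate 1) and of -0.09 in the nub-pdm2 interval (means 0.54 in replicate 2 and 0.65 in replicate 1). Over all shared regions the median difference was 0.03 (means 0.75 in replicate 2 and 0.69 in replicate 1). The regions of a library share that library, so these counts were not tested. The median SD between replicates was 0.060 in the salm-salr interval and 0.063 in the nub-pdm2 interval, against 0.077 over all shared regions.

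A shared member had to overlap a region of both replicate lists, so the rule itself kept the replicate centres near each other. Centres of the replicate regions lay 45.5 to 372 bp apart in the salm-salr interval and 26.0 to 620 bp apart in the nub-pdm2 interval. The largest distance belonged to the nub-pdm2 region from 12593411, which was 1392 bp wide in replicate 1 and 2092 bp wide in replicate 2. Across the 12 regions the replicate scores followed each other with a Spearman rho of 0.90 and a Pearson r of 0.89. Within the intervals rho was 0.40 over the 4 salm-salr regions and 0.90 over the 8 nub-pdm2 regions. Pearson r was 0.89 at salm-salr and 0.90 at nub-pdm2. These 12 regions share their libraries and are a description of the order, without a test. In the order by mean score, the replicate ranges of adjacent regions did not overlap at 1 of the 3 steps among the salm-salr regions and at 3 of the 7 steps among the nub-pdm2 regions.

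The intervals differed in how much of their length was enriched. Regions covered 8.23% ± 0.57 of the salm-salr interval and 16.9% ± 1.06 of the nub-pdm2 interval (mean of the replicate lists, SD, n = 2). In replicate 1 the values were 8.64% at salm-salr and 17.6% at nub-pdm2, a difference of -8.99 percentage points, and in replicate 2 they were 7.82% and 16.1% in the same order, a difference of -8.30. The difference had the same sign in both libraries and was larger than either SD. With 2 replicates the smallest two-sided exact p is 0.5, so no test was made. With each list limited to scores no lower than its median, the covered length was 7.40% at salm-salr and 8.46% at nub-pdm2, so the intervals came close together. The shared regions then numbered 3 at salm-salr and 4 at nub-pdm2.

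Both replicate lists covered less of the salm-salr interval and more of the nub-pdm2 interval than of arm 2L as a whole, where replicate 1 regions covered 9.00% and replicate 2 regions 10.7%. The salm-salr interval held 3.85 regions per 100 kb in replicate 1 and 3.08 in replicate 2, and the nub-pdm2 interval held 10.0 and 8.33 in replicates 1 and 2. On 2L as a whole there were 3.88 in replicate 1 and 4.29 in replicate 2. Top scores did not follow this difference. They were 0.96 ± 0.0044 at salm-salr and 0.94 ± 0.14 at nub-pdm2 (mean of the replicates, SD, n = 2), with salm-salr lower in replicate 1 and higher in replicate 2.

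The 6 arms 2L, 2R, 3L, 3R, 4 and X were also divided into adjoining tiles of each interval's length, as a description of where the intervals stand. Of 923 tiles of 130 kb, 55.7% held at least the 4 shared regions of the salm-salr interval, and the median tile held 4. Of 1000 tiles of 120 kb, 11.5% held at least the 8 shared regions of the nub-pdm2 interval, and the median was again 4. By covered length of shared regions, 56.1% of tiles reached the 8.41% of the salm-salr interval and 33.3% reached the 14.3% of the nub-pdm2 interval. A top shared score as high as that of the salm-salr interval occurred in 44.7% of tiles, and one as high as that of the nub-pdm2 interval in 41.1%.

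**Figure D4:**
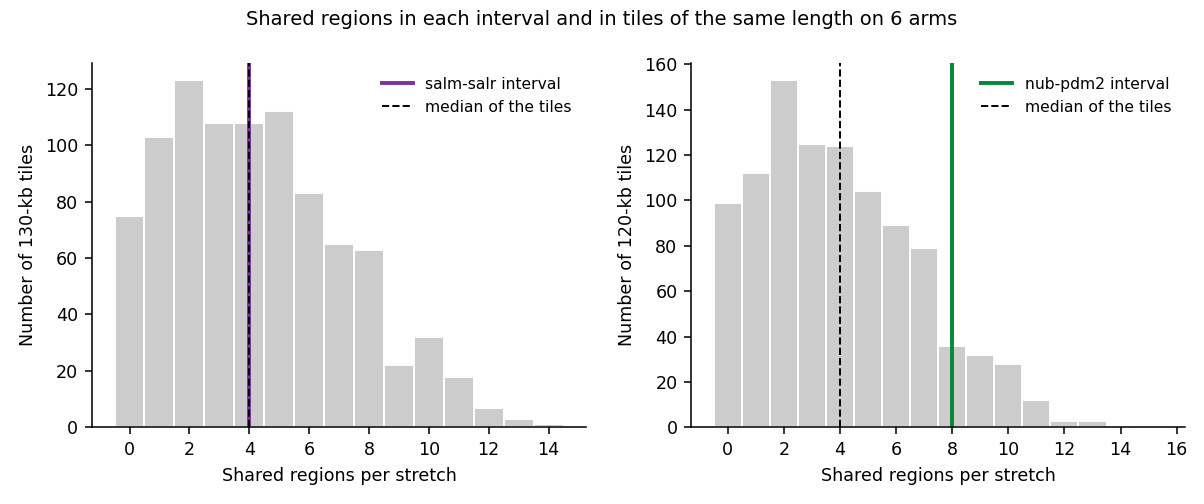
Number of shared regions in tiles of 130 kb (left, n = 923) and 120 kb (right, n = 1000) laid along the 6 arms; bars count tiles, the coloured line is the interval named in the legend and the dashed line is the median tile. The salm-salr interval lies on the median of 4, and the nub-pdm2 interval lies at 8, reached by 11.5% of tiles.

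Near neighbours are not independent of the number of shared regions in a stretch. Another shared region lay within 10 kb of 2 of the 4 shared salm-salr regions and of 7 of the 8 shared nub-pdm2 regions, against 68.3% of all shared regions. Over both intervals it was 9 of 12. The smallest gap between adjacent combined-list members was 924 bp. Pieces of a region split by the caller can count as neighbours, and their part in these counts was not tested.

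The bounds of the intervals were fixed in position, and enrichment did not end at them in the same way on each side. At salm-salr the first and last combined-list members lay 17.8 kb and 21.4 kb inside the bounds. The nearest combined-list regions outside lay 23.8 kb to the left, from 11314940 to 11316183 at 0.67 and found in neither replicate, and 45.8 kb to the right, from 11515800 to 11518174 at 0.50. These distances run from the bounds, and adjacent shared centres inside the interval lay up to 63.5 kb apart. At nub-pdm2 the last member, from 12699433 to 12700764 at 0.33, crossed the right bound, and it was found in replicate 1 alone, at 0.57. The next region began 3.58 kb beyond the bound, from 12703577 to 12706587 at 0.40. Within 50 kb to the right there were 6 combined-list regions, 4 of them shared, with a top combined score of 0.54.

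To the left of the nub-pdm2 interval the nearest combined-list region lay 10.5 kb away, from 12567599 to 12569457 at 0.25. The one beyond it, from 12545530 to 12548243, scored above every combined-list member of the intervals. Its scores were 0.85 in replicate 1 and 1.22 in replicate 2 (1.04 ± 0.26, SD, n = 2), and 1.06 in the combined list. It was higher in replicate 2, whereas the leading nub-pdm2 member was higher in replicate 1, and the lower of its replicate scores lay inside the range of that member. Widening each interval by 20 kb on both sides left 4 shared regions at salm-salr and gave 11 at nub-pdm2, and it did not reach that outside region.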

How the data were processed

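Each ChIP replicate had its own deposited region list, and a further list combined them, in FlyBase release 5 coordinates, per the file headers. The submitters' processing notes name Bowtie 0.12.7. The region caller, its threshold, the use of the inputs and how replicates were combined are not stated. The scores that the authors deposited were read as log2 values. That scale was read from the values, since differences among the 12 most frequent scores of a list matched log2 of simple ratios (denominator up to 40, tolerance 1e-07) in 16 to 44 of 66 pairs, and natural log or log10 in 0.

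The genes, bounds and alternatives were chosen with earlier results of these data known. Groups and replicate numbers came from the sample titles. Every region that overlapped an interval by at least 1 bp was a member. Covered length was clipped to the interval. Where several replicate regions overlapped a combined-list region, the highest score was taken. Replicate scores, mean and SD were given for the 4 shared salm-salr regions and the 5 shared nub-pdm2 regions of highest combined score. The widest region is among them, and the region that crossed a bound has its replicate 1 score. No count model or test between groups was used, because the lists hold no reads. Overlap, coverage and merging were tested on simulated data, where 50 of 50 list pairs gave the base-by-base answer. Motif searches and the wider list of limb genes were planned and not run, because they need sequence or annotation of release 5. Python 3.11.15, numpy 2.4.6, pandas 2.3.3, scipy 1.17.1 and matplotlib 3.10.9 were used. Read depth is unknown. Tried alternatives were a 50% overlap, the median score, merging within 200 bp, wider intervals, other ratios and lists, and leaving out each replicate.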

Additional observations from a re-analysis of the deposited data

How the results depend on the processing

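The numbers of shared regions were the same, 4 at salm-salr and 8 at nub-pdm2, with 50% of the region covered. Merging regions within 200 bp could not join combined-list members, whose smallest gap was 924 bp, and also gave 4 and 8. Requiring 1 replicate in place of both gave 4 at salm-salr, and 10 to 11 at nub-pdm2. With replicate scores limited to the upper part of each list, from its median up, they were 3 and 4, by the construction of fewer regions. Covered length fell to 7.40% at salm-salr and 8.46% at nub-pdm2 under that limit, was 11.2% and 22.0% in the combined list, which holds more regions, and was 6.29% and 17.4% in intervals widened by 20 kb. Each replicate alone gave 7.82% to 8.64% at salm-salr and 16.1% to 17.6% at nub-pdm2. The number with a ratio above 2 was 0 in both intervals, also among shared regions. Either replicate alone gave 0 at salm-salr and 0 to 1 at nub-pdm2. With a ratio above 1.5 it was 2 and 3. The top score was 0.96 to 0.97 at salm-salr and 0.84 to 1.03 at nub-pdm2 with each replicate alone, and 0.90 and 0.92 in the combined list. Of 19 replicate scores of the 10 named regions, 15 lay above the combined score, and the cause was not tested. The same direction held over all shared regions, with medians of 0.56 in the combined list, 0.61 in replicate 1 and 0.66 in replicate 2. Weighting by overlap length could not change the scores of the 9 shared ones, which each overlapped 1 region per replicate. No paired analysis was possible because region lists exist for the ChIP samples alone and no groups were tested against each other. With depth unknown, absence from a list does not show absence of binding.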
